A study of Mus musculus with 8 samples.

Results

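The histone genes of the mouse genome were examined in cultured immune cells from TCR1640 and SJL/J mice of both sexes. Members were the protein-coding genes whose GENCODE M21 symbol begins with Hist1h to Hist4h, H2af, H3f3 or H1f, and 82 of the 52636 genes counted met this rule. Of these, the 67 with Hist symbols were taken as replication-dependent genes of the histone clusters and the other 15 as replacement variants. This class rests on the symbol alone, so single genes may not behave as their class does. The cluster genes comprised 6 H1, 18 H2A, 18 H2B, 12 H3 and 13 H4 genes, of which 54 carry Hist1 symbols, 10 Hist2, 2 Hist3 and 1 Hist4. TCR1640 mice express a transgenic, myelin-directed T cell receptor in the SJL/J strain, and SJL/J mice served as the strain control. The 4 groups were TCR1640 males, TCR1640 females, SJL/J males and SJL/J females. Mice of all groups were 35 to 55 days old and had not yet shown signs of disease. Their spleen and lymph node cells were cultured for 4 days with anti-CD3 at 1 µg/ml, IL-23 and IL-6 at 20 ng/ml each, TGF-β at 4 ng/ml and IL-12 at 3 ng/ml. Each group had 2 libraries, and the labels do not say whether these came from separate mice.

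Replication-dependent histone genes lie in clusters and supply the bulk of nucleosome protein while DNA is copied in S phase. Their mRNAs normally lack a poly(A) tail and end just after a stem-loop, which the stem-loop binding protein Slbp recognises and which the U7 snRNP helps to cut. Replacement variants such as H3.3, H2A.Z, macroH2A and H1.0 are made throughout the cell cycle or in resting cells, from polyadenylated mRNAs. H2A.X, which is phosphorylated at DNA breaks, is made from an mRNA that can end either way. The libraries were made with a kit that selects polyadenylated mRNA, so counts of cluster genes describe the RNA that this kit retained and not the whole histone mRNA pool.

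The stem-loop sites are shown because this structure is the hallmark of replication-dependent histone mRNA. The stem-loop motif (GG, 3 free bases, TTTT, 1 free base, AG, 2 free bases, CC) was searched on the transcribed strand of the GENCODE M21 transcripts (GRCm38). Capitals mark its 16 bases, with up to 5 bases on each side. Hist1h2ao and Hist1h2bf carry the form found in most H2A and H2B genes with a match, Hist1h1c a linker gene, Hist1h4i an H4 form, and H2afx the only replacement variant with a match.
Hist1h2ao: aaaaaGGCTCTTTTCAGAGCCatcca
Hist1h2bf: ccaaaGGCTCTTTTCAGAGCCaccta
Hist1h1c: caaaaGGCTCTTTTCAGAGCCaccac
Hist1h4i: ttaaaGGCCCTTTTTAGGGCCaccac
H2afx: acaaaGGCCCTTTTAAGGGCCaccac

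The motif was present in 44 of 67 cluster genes and 1 of 15 replacement variants, against 127 of 21901 protein-coding genes (0.58%). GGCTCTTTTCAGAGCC was the form in 10 of the 11 H2A genes with a match and in 8 of the 10 H2B genes, whereas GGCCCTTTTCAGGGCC was the form in 7 of 11 H4 genes. The annotated transcript ended within 60 bases of the site in 21 cluster genes and ran on past it in 23, while 23 had no match in the annotated transcript. The H1 genes with a match all had transcripts that ran on, by 840 bases in Hist1h1c and 4884 bases in Hist1h1d. In H2afx the site lay 822 bases before the transcript end. No match says only that these letters are not in the annotated transcript.

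A second set of sequences matters because all 18 cluster H2A genes share exon sequence with an annotated feature on the other strand. Opposite 12 of the Hist1 H2A genes lies a short feature of the miRNA type, 138 to 144 bases long, and 11 of these 12 lie wholly inside the H2A coding sequence. The 12 features have 5 distinct sequences, and 8 of them have the same 138 bases. That shared stretch is given as read on the Hist1h2ao strand, where it runs from base 248 to base 385 of the 480-base transcript and is the exact complement of Gm19658 at chr13:21810712-21810849 on the minus strand (GRCm38). A stretch of H2afx, which begins and ends at other points of the coding sequence, is complementary to Gm44335 at chr9:44334965-44335105 on the minus strand and covers bases 272 to 412 of its 1384-base transcript.
Hist1h2ao: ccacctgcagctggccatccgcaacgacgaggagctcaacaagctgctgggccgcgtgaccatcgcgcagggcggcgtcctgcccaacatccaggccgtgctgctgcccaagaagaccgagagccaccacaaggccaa
H2afx: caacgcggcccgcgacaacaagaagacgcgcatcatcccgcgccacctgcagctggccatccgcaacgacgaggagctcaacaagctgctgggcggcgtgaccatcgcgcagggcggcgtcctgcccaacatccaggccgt

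The labels were checked before the histone values were compared. The sex labels matched the data, since Eif2s3y had 229 and 180 counts in TCR1640 and SJL/J males and 0 in both female groups. T cell receptor segments went against the strain labels, since a transgenic receptor is known to dominate the T cells of the mice that carry it. Traj43 made up 2.91% and 5.04% of the Traj counts in TCR1640-labelled males and females, against 79.2% and 75.6% in SJL/J-labelled males and females. Trbv2 made up 20.6% and 19.7% of the Trbv counts in TCR1640-labelled males and females, against 63.05% and 58.3% in SJL/J-labelled males and females. Groups are therefore named by their labels, and every strain direction below is a direction between labelled libraries. The 2 columns of a group differed little beyond sampling noise, with a chi-square per degree of freedom of 1.05 to 1.08 against 3.12 to 17.05 between groups, and were summed to 1 sample. Summed totals were 10005975 counts for TCR1640 males, 7937262 for TCR1640 females, 7678860 for SJL/J males and 8378659 for SJL/J females.

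The strand setting of the counting is not given in the sources used here, although the kit keeps strand. Gm19658 lies wholly inside the Hist1h2ao exon, yet it has 19688 counts beside 3429 for Hist1h2ao, so reads were assigned by strand. Which strand was credited to a gene is not known, so either count of a pair may hold the gene's own reads. In the 12 Hist1 H2A pairs described above, the feature had 5.74 to 12.5 counts for each count of the gene. It covered 5.56 to 35.9% of the annotated transcript. Which count holds the mRNA was not tested. Because the credited strand is not known, values of all genes are uncertain. The uncertainty can be seen only in genes with an opposite feature, which include 18 of 18 cluster H2A genes and 7 of 15 replacement variants. For H1f0, among these 7 variants, the opposite feature has no count in the data. Only 3 of the other 49 cluster genes share exon sequence in this way, and the rest have no count for their other strand. Near-identical copies add to the uncertainty, since a median of 73.0% of the 50-base windows of a cluster H2A gene (range 2.0 to 100) also occurred in transcripts of other loci. The corresponding medians were 44.0% for H2B, 57.2% for H3, 39.5% for H4 and 1.13% for H1 cluster genes, 6.68% for H2A replacement variants, 10.1% for H3 replacement variants and 0% for H1 replacement variants.

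Replacement variants held most of the histone counts, which carry the strand uncertainty. Over the 8 columns the 15 replacement variants had 34107 counts (69.2% of the total over members) and the 67 cluster genes 15211 counts. Within the cluster genes, H2A genes held 12360 counts, or 81.3%, H1 genes 1224, H2B genes 850, H4 genes 412 and H3 genes 365. The median cluster gene had 44 counts, against 702 for the median replacement variant, and 5 members (H1fnt, H2afb1, H2afb2, H2afb3 and Hist2h3c1) had none in any column. A count of 0 in a group allows up to 3 counts there, for counting error only.

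Per kilobase of exon, the highest member was Hist1h2ao, a cluster H2A gene, with a mean over the 4 groups of 213 CPM per kilobase (CPM, counts scaled to a column total of 1000000). Hist1h2ap, at 179, was next. H2afy, which encodes macroH2A1, followed at 83.2, and H3f3b, a gene for H3.3, at 68.0. The linker variant H1f0 stood at 40.4 and H2afz, which encodes H2A.Z, at 13.9. H3f3a, the other H3.3 gene, stood at 6.95. The replacement variants thus spanned a wide range of counted levels. The cluster H2B gene with the highest level was Hist1h2bl at 5.00. The cluster H1 gene with the highest level was Hist1h1c at 12.7, and the cluster H4 gene was Hist1h4n at 4.37. No cluster H2B, H3 or H4 gene stood above 5.00. By these counts a few H2A genes and replacement variants thus lay far above the other core histone genes. These levels carry the strand uncertainty. Hist1h2ao had 3429 counts beside 19688 for Gm19658 on the other strand. H3f3a had 829 counts, beside 31803 for Gm17275, which shares 638 bases of its exons, and 30 for H3f3aos. Whether the order of levels depends on the strand credited to each gene was not tested.

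Promoter sequence was compared because the H2A genes moved together between strain labels. RefSeq promoters (GRCm38.p6, 250 bases before to 50 bases after the gene start) were matched for 75 of 82 members. That of Hist1h2ag, at chr13:22042900-22043199 on the minus strand, is shown with CCAAT, read on either strand, in capitals.
Hist1h2ag: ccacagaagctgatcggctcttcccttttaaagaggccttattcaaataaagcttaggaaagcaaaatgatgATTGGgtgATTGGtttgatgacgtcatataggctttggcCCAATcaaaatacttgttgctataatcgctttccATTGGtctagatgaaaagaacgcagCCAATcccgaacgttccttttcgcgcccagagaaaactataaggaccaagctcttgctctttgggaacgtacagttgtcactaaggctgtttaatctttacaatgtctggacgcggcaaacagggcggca

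Searched on both strands, CCAAT was in 52 of 61 matched cluster promoters (85.2%), 10 of 14 replacement promoters (71.4%) and 37.9% of all 27025 promoters of this length. All 17 H2A, 16 H2B, 10 H3 and 6 H1 cluster promoters matched held it, against 3 of 12 for H4. TATAAA was in 49.2% of cluster, 7.14% of replacement and 8.88% of all promoters. The octamer ATTTGCAT was in 7 of 17 H2A and 6 of 16 H2B promoters, in none of those of the H1, H3 and H4 cluster genes, and in 1.75% of all promoters. The motifs were searched separately, so matches may share bases, and a match describes letters only.

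**Figure D1:**
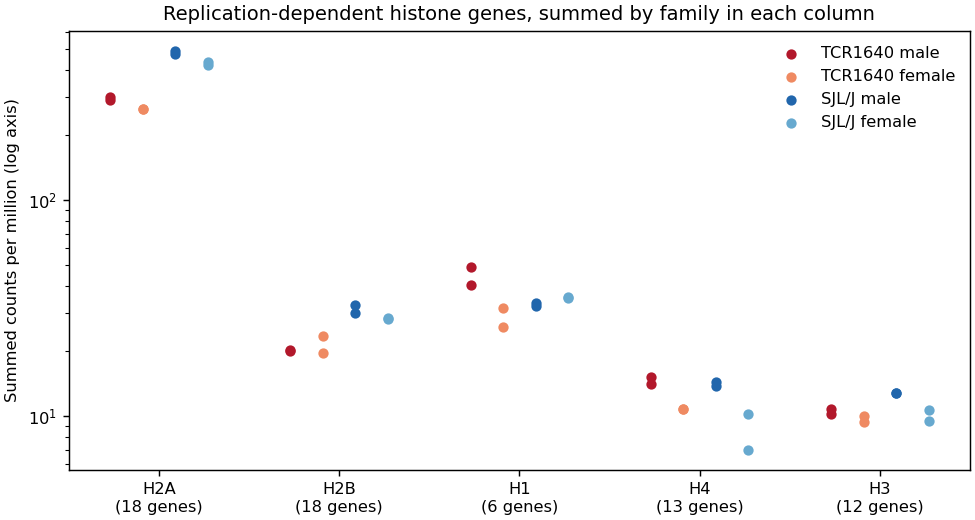
Summed CPM (log axis) of the replication-dependent genes of each histone family, with 1 point for each of the 8 columns, coloured by group. Points for H2A lie between 264 and 301 in TCR1640-labelled columns and between 423 and 489 in SJL/J-labelled columns, far above the other families.

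The comparison between strain labels asked which histone genes differed with both sexes in the fit. In TCR1640-labelled libraries 12 of the 18 cluster H2A genes fell, as did the H2B gene Hist1h2bf and 4 replacement variants (H1f0, H1fx, H2afx and H2afz). No member rose. An additive edgeR quasi-likelihood fit on the 4 summed samples, 2 against 2, tested 47 of the 82 members, since 35 did not pass its filter on low counts. Of the 47, 17 were lower at an adjusted p under 0.05 and 0 were higher. Over all 17261 genes tested, 26.5% were called, 13.1% lower and 13.4% higher. The fit has 1 residual degree of freedom, so neither its errors nor its p-values measure how much mice vary. Many of the 17 share sequence, so they are not separate observations.

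Among cluster genes 13 of 37 tested were lower, with a median log2 fold change (TCR1640 over SJL/J) of -0.61, against 0.01 over all genes tested. By family, 12 of 13 tested H2A genes were lower, as were 1 of 12 H2B genes, 0 of 3 H3, 0 of 4 H4 and 0 of 5 H1 genes. Without the H2A genes the cluster median was -0.08. Among replacement variants 4 of 10 tested were lower, and the median was -0.24.

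**Figure D2:**
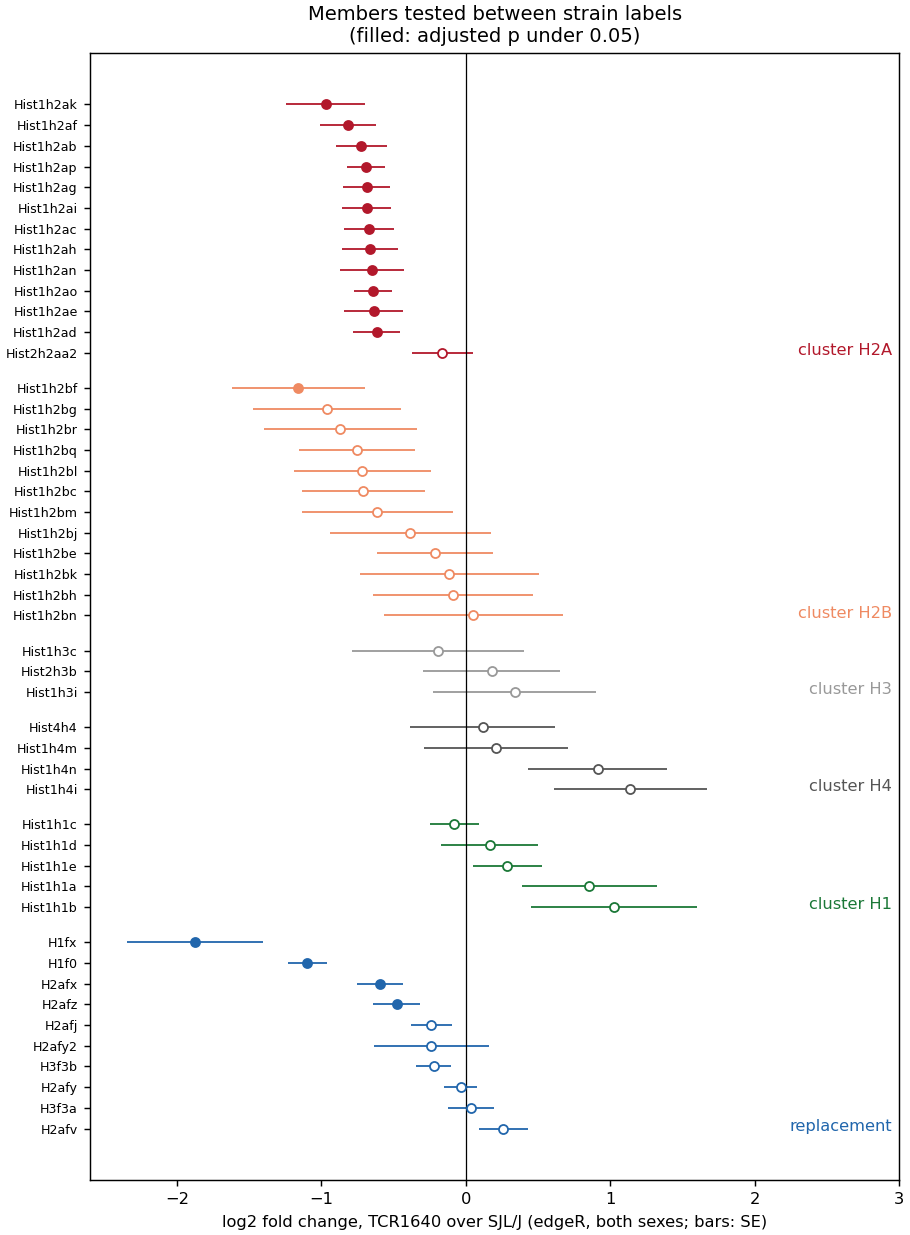
Log2 fold change between strain labels (TCR1640 over SJL/J, horizontal axis) for the 47 members tested, grouped by family, with SE bars from edgeR and filled points for an adjusted p under 0.05. The filled points are 12 H2A genes, Hist1h2bf and 4 replacement variants, and all lie left of 0.

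Hist1h2ao (chr13:21810465-21810944, plus strand), the most counted cluster gene, had 77.1 and 89.3 CPM in the columns of TCR1640-labelled males and 66.98 and 79.9 CPM in those of TCR1640-labelled females. It had 133 and 135 CPM in SJL/J-labelled males and 118 and 116 CPM in SJL/J-labelled females. All TCR1640-labelled columns lay below all SJL/J-labelled columns. The log2 fold change was -0.65 (SE 0.13, edgeR adjusted p = 9.42e-06).

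Hist1h2ap (chr13:21833026-21833507, minus strand), a near-identical copy, had 69.5 and 67.2 CPM in TCR1640-labelled males and 64.4 and 59.2 CPM in TCR1640-labelled females. It had 112 and 113 CPM in SJL/J-labelled males and 105 and 101 CPM in SJL/J-labelled females. Again the labelled groups did not overlap, and the log2 fold change was -0.69 (SE 0.13, edgeR adjusted p = 2.7e-06).

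The other 10 H2A genes that fell are smaller contributors from the same chromosome 13 cluster. Their log2 fold changes ran from -0.97 in Hist1h2ak to -0.62 in Hist1h2ad. Hist1h2ak had 45 and 33 counts in TCR1640-labelled males and females, against 73 and 66 in SJL/J-labelled males and females. Hist1h2ag had 201 and 150 counts in TCR1640-labelled males and females, against 249 and 267 in SJL/J-labelled males and females, and its log2 fold change was -0.69. In Hist1h2af (-0.82), Hist1h2ab (-0.72), Hist1h2ai (-0.69), Hist1h2ac (-0.67), Hist1h2ah (-0.67), Hist1h2an (-0.65) and Hist1h2ae (-0.64) the direction was the same. Summed over the 12 genes, TCR1640-labelled columns held 252 to 287 CPM, against 409 to 472 CPM in SJL/J-labelled columns. Each of the 12 was lower in every TCR1640-labelled column than in any SJL/J-labelled column. By that count over columns 18 of the 47 members tested were lower and 0 higher, where 17.5% and 15.3% of all genes tested were. DESeq2 called only Hist1h2ao and Hist1h2ap of these 12.

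Hist2h2aa2, an H2A gene of the chromosome 3 cluster, had 109 and 72 counts in TCR1640-labelled males and females, against 95 and 88 in SJL/J-labelled males and females. Its log2 fold change of -0.16 (SE 0.21) did not pass the edgeR test (adjusted p = 0.637). The other H2A genes outside the 12 had 48 or fewer counts over the 8 columns and were not tested.

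**Figure D3:**
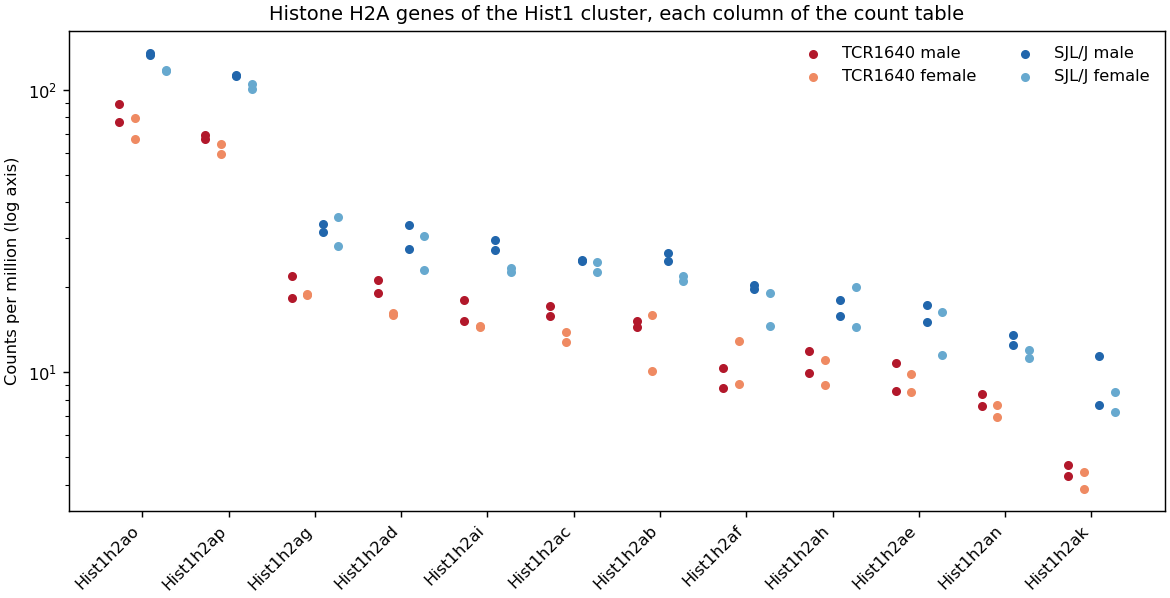
CPM (log axis) of the 12 Hist1 H2A genes in each of the 8 columns, with TCR1640-labelled columns in red tones and SJL/J-labelled columns in blue tones. For each gene the 4 TCR1640-labelled points lie below the 4 SJL/J-labelled points, and Hist1h2ao and Hist1h2ap are well above the rest.

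Cluster H2B genes, which encode the partner of H2A in the nucleosome, had few counts. Only Hist1h2bf passed the test, with 12 and 11 counts in TCR1640-labelled males and females, against 21 and 27 in SJL/J-labelled males and females. Its log2 fold change was -1.16 (SE 0.46, edgeR adjusted p = 0.0447), and the call was lost under 10 of 17 alternatives. The 12 tested H2B genes had a median log2 fold change of -0.66. Summed over all 18 H2B genes, the log2 ratio of TCR1640-labelled to SJL/J-labelled libraries was -0.37 in females (exact 95% counting interval -0.66 to -0.08) and -0.59 in males (-0.87 to -0.31). These ratios within a sex set 1 sample against 1 and have no test, and their intervals cover counting error only.

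Sums of the other core histone families had wide intervals. The 12 H3 genes had 105 and 77 counts in TCR1640-labelled males and females, against 98 and 85 in SJL/J-labelled males and females, and log2 ratios of -0.24 in males (-0.65 to 0.17) and -0.04 in females (-0.51 to 0.42). The 13 H4 genes had 146 and 86 counts in TCR1640-labelled males and females, against 108 and 72 in SJL/J-labelled males and females, with log2 ratios of 0.10 in males (-0.27 to 0.47) and 0.36 in females (-0.11 to 0.83). All 4 intervals include equality, which does not show that the sums were equal. The 4 H4 genes tested had positive log2 fold changes with a median of 0.56, and the 3 H3 genes tested had a median of 0.18, and none passed. The H2A sum had a log2 ratio of -0.67 (-0.75 to -0.59) in females, below the H3 and H4 intervals. In males it had -0.66 (-0.73 to -0.59), below the H4 interval and at the lower end of the H3 interval.

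Among replacement variants, H1f0 showed the lowest adjusted p. H1f0 (chr15, H1.0), a linker histone known to build up in resting and differentiated cells, had 56.0 and 53.7 CPM in TCR1640-labelled males and 51.5 and 46.9 CPM in TCR1640-labelled females. It had 114 and 116 CPM in SJL/J-labelled males and 110 and 116 CPM in SJL/J-labelled females. All TCR1640-labelled columns were at about the same level, below every SJL/J-labelled column. The log2 fold change was -1.10 (SE 0.14, edgeR adjusted p = 1.8e-14). No 50-base window of it recurred in another locus, but 163 bases of its exons are shared with the other strand, so its values carry the strand uncertainty. The feature on that strand has no count in the data, so no comparison of the strands was possible for H1f0.

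H1fx, another linker variant, had the largest fold change on few counts. It had 14 and 4 counts in TCR1640-labelled males and females, against 35 and 22 in SJL/J-labelled males and females. The log2 fold change was -1.87 (SE 0.47, edgeR adjusted p = 0.000617), while Gm5577 on the other strand, with 6048 counts, had 0.07 (adjusted p = 0.717). DESeq2 did not call H1fx (adjusted p = 0.211, the highest of 17 alternatives, whose lowest was 1.05e-05).

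H2afx, the gene for H2A.X, had 22.5 and 24.8 CPM in TCR1640-labelled males and 19.3 and 19.5 CPM in TCR1640-labelled females. It had 33.2 and 37.6 CPM in SJL/J-labelled males and 30.3 and 32.0 CPM in SJL/J-labelled females, so the labelled groups did not overlap. The log2 fold change was -0.60 (SE 0.16, edgeR adjusted p = 0.00118). DESeq2 did not call it (adjusted p = 0.218, the highest of 17 alternatives, whose lowest was 1.11e-08).

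H2afz, the gene for H2A.Z, had 20.2 and 23.1 CPM in TCR1640-labelled males and 18.03 and 19.7 CPM in TCR1640-labelled females, against 33.5 and 31.4 CPM in SJL/J-labelled males and 25.6 and 25.7 CPM in SJL/J-labelled females. All TCR1640-labelled columns again lay below all SJL/J-labelled columns, and the log2 fold change of H2afz was -0.48 (SE 0.16, edgeR adjusted p = 0.0143). DESeq2 did not call it (adjusted p = 0.45, the highest of 17 alternatives, whose lowest was 1.81e-05).

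The most counted replacement variant, H2afy (macroH2A1), did not pass the test, with 602 and 507 CPM in TCR1640-labelled males and females, against 597 and 562 CPM in SJL/J-labelled males and females, and a log2 fold change of -0.04 (SE 0.11, adjusted p = 0.863). H3f3b had 192 and 177 CPM in TCR1640-labelled males and females, against 238 and 203 CPM in SJL/J-labelled males and females, and -0.22 (SE 0.12, adjusted p = 0.176). The other variants tested were H3f3a (0.04), H2afj (-0.24), H2afy2 (macroH2A2, -0.24) and H2afv (H2A.Z.2, 0.26), with edgeR adjusted p of 0.216 to 0.902. The H2A.Z pair H2afz and H2afv thus had values of opposite sign, and only H2afz passed. Whether they differ was not tested.

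Set against each other, the class medians differed by -0.37 (cluster minus replacement, log2), and its sign depended on which cluster genes were included. It became 0.15 without the H2A genes and 0.045 without the H2B genes, both settings chosen after seeing the data, and 0.13 over members with no exon sequence shared with the other strand. Leaving out a column moved it to as little as -0.13 (without SJL/J male replicate 2) or -0.19 (without TCR1640 female replicate 1), and to -0.24 without TCR1640 male replicate 1 or without SJL/J male replicate 1. Summed counts gave log2 ratios for cluster genes of -0.58 in females (-0.65 to -0.51) and -0.53 in males (-0.59 to -0.47). For replacement variants they were -0.23 in females (-0.28 to -0.19) and -0.15 in males (-0.19 to -0.10). For the 49 cluster genes other than H2A they were -0.20 in females (-0.36 to -0.03) and 0.02 in males (-0.12 to 0.17).

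By a rule of at least 2-fold with an interval that leaves out equality and a mean log2 CPM of at least 3, H1f0 alone of 22 members above that floor was apart in females, against 5.04% of 10505 genes apart and 2.28% apart and lower. In males H1f0 and Hist1h2af were apart, against 6.78% of genes apart and 2.76% apart and lower. All 3 values were lower in TCR1640-labelled libraries. Most members that fell did so by less than 2-fold.

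The short features opposite to the 12 Hist1 H2A genes held more counts than the genes, and they were lower too. Over the 12 pairs the features had 88647 counts, against 11866 in the H2A genes, and the ratio per pair ran from 5.74 to 12.5 with a median of 8.82. All 12 features were lower between strain labels, with log2 fold changes of -0.63 to -0.44 and a median of -0.57, against a median of -0.68 for the 12 genes. Gm19658, opposite Hist1h2ao, had -0.63 (SE 0.11, edgeR adjusted p = 5.06e-07). Gm44335, opposite H2afx, had 5429 counts and -0.59 (SE 0.12, edgeR adjusted p = 2.87e-05), close to the -0.60 of H2afx. Gm47071, opposite H2afy, had 92692 counts and -0.04, and H2afy also had -0.04. Gm44364, opposite H2afj, had 9695 counts and was lower at -0.33 (SE 0.12, edgeR adjusted p = 0.0239). H2afj itself, with 1689 counts, had -0.24 and did not pass (edgeR adjusted p = 0.216), so the call in this pair depends on the strand. Opposite Hist3h2a, which had 20 counts and was not tested, Gm44313 had 1087 counts and 0.08 (adjusted p = 0.751). Since it is not known which count of a pair holds the gene's own reads, values of the same sign in a pair are not taken as independent.

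**Figure D4:**
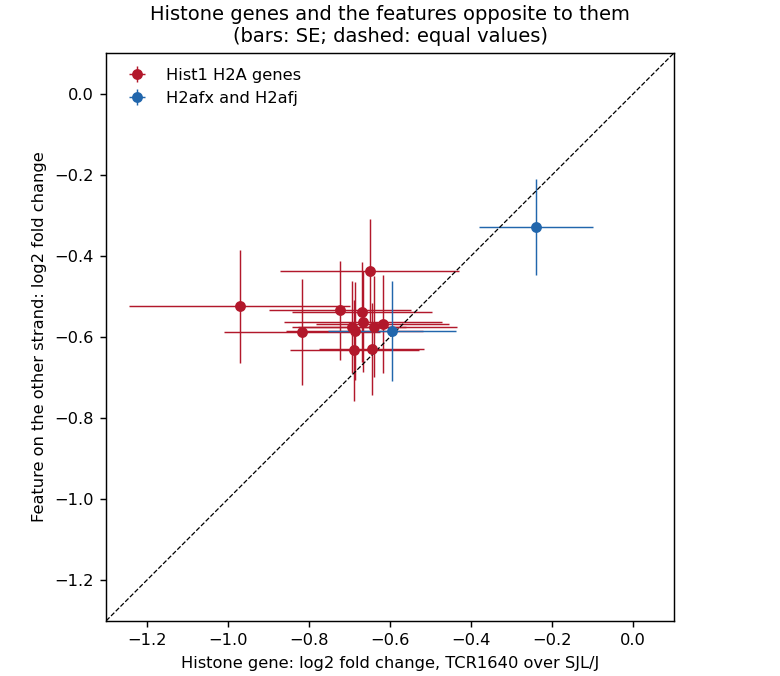
Log2 fold change between strain labels (TCR1640 over SJL/J) of the histone gene (horizontal) and of the miRNA-type feature on the other strand (vertical), with SE bars, for 12 Hist1 H2A genes and for H2afx and H2afj. All 12 H2A pairs lie below 0 on both axes, with features between -0.63 and -0.44.

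Factors that make and process histone mRNA were called between strain labels about as often as all genes tested, of which 26.5% were called. Of 20 listed, all were tested, and 1 was higher and 4 lower, with a median of -0.09, where 13.4% of all genes tested were higher and 13.1% lower. Ccne1, the cyclin whose kinase activates histone transcription in S phase, had 274 and 265 counts in TCR1640-labelled males and females, against 139 and 178 in SJL/J-labelled males and females. It rose by 0.66 on the log2 scale (SE 0.16, edgeR adjusted p = 0.000408). Cpsf2 (-0.93), a subunit of the cleavage complex, Sympk (-0.40), its scaffold, and Srrt (-0.35), which works with the cap-binding complex, fell. Eri1, an exonuclease that trims the stem-loop end, also fell. Cpsf2 shares exon sequence with the other strand. Slbp had 209 and 184 counts in TCR1640-labelled males and females, against 199 and 198 in SJL/J-labelled males and females, and its log2 fold change of -0.14 did not pass (adjusted p = 0.591). Npat, the activator of cluster transcription, had 0.18 (adjusted p = 0.459).

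Of 28 histone chaperones and exchange factors tested, 4 were higher and 6 lower, with a median of -0.14, beside the same 13.4% and 13.1% over all genes. Chaf1a, the large subunit of the CAF-1 complex that deposits H3 and H4 behind the replication fork, had 429 and 290 counts in TCR1640-labelled males and females, against 560 and 620 in SJL/J-labelled males and females. Its log2 fold change was -0.86 (SE 0.14, edgeR adjusted p = 2.94e-08), and it shares exon sequence with the other strand. Mcm2, a helicase subunit that also binds H3 and H4, fell (-0.58), as did Nap1l1 (-0.50), a chaperone of H2A and H2B. Cabin1 (0.56), a subunit of the H3.3-depositing HIRA complex, and Daxx (0.53), the H3.3 chaperone that works with Atrx, rose. Supt6 (0.39), a chaperone of transcribed chromatin, rose too, and shares exon sequence with the other strand. The replication-coupled chaperone Asf1b was also lower (-0.76).

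Other gene groups moved with the H2A genes between strain labels. Over all genes tested 13.1% were lower and 13.4% higher. DNA replication genes were lower in 18 of 26 tested (median -0.56) and higher in 0. G2 and mitosis genes were lower in 17 of 20 (median -0.64) and higher in 0. Their summed levels were 1241 and 1203 CPM for G2 and mitosis genes in TCR1640-labelled males and females, against 1877 and 1720 CPM in SJL/J-labelled males and females. Their part in the histone result was not tested. In these bulk samples fewer cells of a type and less RNA per cell cannot be told apart.

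Cell type markers differed between the strain labels as well. Beside the counts called below, 13.1% of all genes tested were lower and 13.4% higher. The neutrophil list (7 of 7 lower) summed to 2.30 and 5.67 CPM in TCR1640-labelled males and females, against 154 and 57.8 CPM in SJL/J-labelled males and females. Elane and S100a8 were at 0 counts in both TCR1640-labelled groups, and Ltf in the females. The platelet and erythroid list (5 of 7 lower) summed to 29.4 and 31.0 CPM in TCR1640-labelled males and females, against 288 and 160 CPM in SJL/J-labelled males and females, with Ppbp at 0 in both TCR1640-labelled groups and Gp1bb in the females. The mast cell and basophil list (5 of 6 lower, 1 higher) summed to 57.3 and 52.9 CPM in TCR1640-labelled males and females, against 101 and 79.4 CPM in SJL/J-labelled males and females. Most counts of this list in TCR1640-labelled groups were Kit, the gene that was higher (512 and 380 against 137 and 128). The 5 lower genes had log2 fold changes of -6.05 to -2.93, so the sums understate their difference. These 3 lists had lower sums in both TCR1640-labelled groups than in either SJL/J-labelled group. In the other direction, the 2 CD8 genes were both higher and summed to 281 and 268 CPM in TCR1640-labelled males and females, against 52.4 and 43.2 CPM in SJL/J-labelled males and females. Of the T cell genes, which mark the cells the culture stimulates and were high in all groups, 3 of 5 were higher and 1 lower, at 1143 and 1060 CPM in TCR1640-labelled males and females, against 972 and 855 CPM in SJL/J-labelled males and females. B cell genes were higher in 3 of 4 tested, at 41.0 and 38.5 CPM in TCR1640-labelled males and females, against 25.1 and 21.1 CPM in SJL/J-labelled males and females. Monocyte and macrophage genes were lower in 1 of 3 tested, at 138 and 132 CPM in TCR1640-labelled males and females, against 128 CPM in both SJL/J-labelled groups. Most of these counts were Csf1r (1316 and 1008 against 894 and 997), which shares exon sequence with the other strand. The gene called lower was Lyz2, with 2 and 3 counts against 61 and 38 and a log2 fold change of -4.39. Cd68 had 63 and 38 counts against 30 and 37 and was not called. Adgre1 and C1qa had 0 to 2 counts in each group. The part of these cell types in the histone result was not tested.

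Between males and females no histone gene was called. With both strain labels together, edgeR called 0 of 47 members tested, where 1.1% of all genes tested were called. At an unadjusted p under 0.05 edgeR gave 2 members (H1fx and Hist1h1c), limma-voom 1 (Hist1h1c) and DESeq2 0, and limma-voom and DESeq2 called none after adjustment. Of the 47, 39 had a positive log2 fold change (male over female), where 8702 of all 17261 genes tested did. The median of the 47 members was 0.14, against 0.00247 over all genes tested. Many of these members share sequence, so they are not separate observations. The lowest adjusted p was 0.41, for Hist1h1c, at a log2 fold change of 0.39 (SE 0.17). Within each strain label 0 of 22 members were apart by at least 2-fold, against 0.647% of genes in TCR1640-labelled and 0.352% in SJL/J-labelled libraries. The 12 features opposite to the H2A genes had a median log2 fold change of -0.00364 for sex, against 0.13 for the 12 genes, and none was called.

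Linker genes of the cluster, whose products bind DNA between nucleosomes, are given by sex within each strain label, and differences between the labels were not tested. Hist1h1d had 58 counts in TCR1640-labelled males and 20 in TCR1640-labelled females, and 21 in SJL/J-labelled males and 40 in SJL/J-labelled females. Its log2 ratio of male to female was 1.18 (0.43 to 1.99) in TCR1640-labelled libraries and -0.84 (-1.68 to -0.05) in SJL/J-labelled libraries, with intervals on opposite sides of 0. The highest value was in TCR1640-labelled males.

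Hist1h1c had 237 counts in TCR1640-labelled males and 117 in TCR1640-labelled females, and 166 in SJL/J-labelled males and 163 in SJL/J-labelled females. Its log2 ratios were 0.66 (0.34 to 1.00) and 0.11 (-0.21 to 0.43) for TCR1640-labelled and SJL/J-labelled libraries. Hist1h1e had 108 counts in TCR1640-labelled males and 58 in TCR1640-labelled females, and 52 in SJL/J-labelled males and 70 in SJL/J-labelled females, with ratios of 0.54 (0.07 to 1.03) and -0.34 (-0.89 to 0.20). Both were highest in TCR1640-labelled males, and the intervals of the labels overlapped for each gene. For Hist1h1a the ratios were 0.28 and -0.29 and for Hist1h1b -0.36 and -1.24, with intervals that include 0, and Hist1h1t had 1 count in all.

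Summed over the 6 cluster H1 genes, the male to female log2 ratio was 0.61 (0.38 to 0.85) in TCR1640-labelled libraries and -0.15 (-0.39 to 0.10) in SJL/J-labelled libraries. The corresponding strain-label ratios were 0.48 (0.25 to 0.71) in males and -0.28 (-0.54 to -0.03) in females. With 1 sample per group the difference between these ratios was not tested. None of the 6 genes shares exon sequence with the other strand, so no count of that strand is available for them. The cluster H1 sum is thus a family whose strain-label ratio had opposite signs in males and females, unlike the H2A sum, at -0.66 and -0.67.

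**Figure D5:**
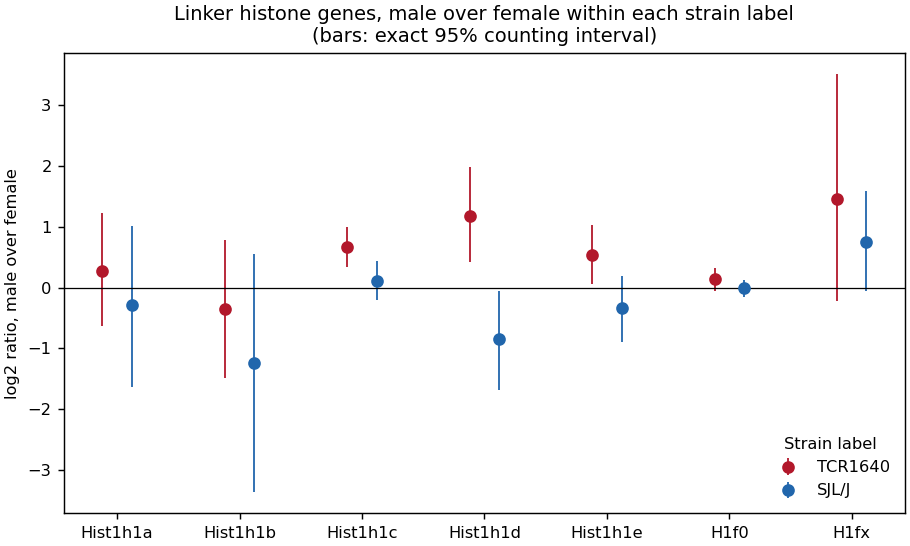
Log2 ratio of males to females for 7 linker histone genes within each strain label, with exact 95% counting intervals. For Hist1h1d the interval lies above 0 in TCR1640-labelled libraries and below 0 in SJL/J-labelled libraries.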

How the data were processed

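RNA was measured in 8 libraries of 4 groups, which were taken from the sample titles. The values are counts per Ensembl gene, deposited by the authors without normalization. Demultiplexing and alignment tools (bcl2fastq 2.17, Bowtie2), HTSeq and the mm10 build are listed in the submitters' processing notes, and the labels' protocols name 500 ng of RNA and a KAPA stranded mRNA kit. The strand setting of the counting is not given in the sources used here.

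Symbols, positions and exons came from GENCODE M21 on GRCm38, in which 233 of 52636 identifiers were not found. The 2 columns of a group were compared by chi-square over genes with at least 20 counts and summed. edgeR 4.0.16 under R 4.3.3 (filterByExpr, TMM, quasi-likelihood F test, strain label plus sex, Benjamini-Hochberg over 17261 genes, threshold 0.05) was fitted to the 4 sums, with a common coefficient of variation of 9.78%. Each SE was taken as the log2 fold change divided by √F. The scripts were tested on simulated data. Pairs of groups have 1 sample each and carry log2 ratios with exact conditional binomial 95% intervals, which cover counting error only. Totals ran from 7678860 to 10005975 counts.

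Alternatives were RLE, upper-quartile and overlap-free TMM factors, other filters, DESeq2 1.42.0, limma-voom (limma 3.58.1), 8 separate columns with and without a block, and each column left out. Replacement variants with at least 20 counts, the 12 most counted cluster genes, called members and the 3 list genes with the lowest adjusted p in each direction are named. Other genes that are named, such as Slbp, Npat, Eri1, Asf1b, Hist2h2aa2 where it is contrasted with the rest, Hist3h2a and the H1 genes Hist1h1a, Hist1h1b, Hist1h1d, Hist1h1e and Hist1h1t, were chosen after their values were seen. Members and lists were chosen with earlier results of these data known.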

Additional observations from a re-analysis of the deposited data

Results flagged for a closer look

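Hist1h1d, a linker histone gene of the cluster, had a male to female log2 ratio of 1.18 in TCR1640-labelled libraries and -0.84 in SJL/J-labelled libraries. Both TCR1640-labelled male columns (7.16 and 4.50 CPM) lay above both female columns of that label (1.80 and 3.21 CPM). Both SJL/J-labelled male columns (2.92 and 2.56 CPM) lay below both female columns of that label (5.13 and 4.44 CPM). The difference between the ratios was 2.02 on the log2 scale. This difference was not tested, since each group has 1 sample, and the agreement of its 2 columns is not replication. The share of all genes with such columns is not given here.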

How the results depend on the processing

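Between strain labels, edgeR with RLE or upper-quartile factors, without a filter or with 1 CPM in 2 samples gave 17 lower members, and overlap-free TMM factors and limma-voom gave 16. DESeq2 gave 3 (H1f0, Hist1h2ao and Hist1h2ap), and the cause was not tested. Leaving out each column gave 15 to 17 for strain labels and 0 to 0 for sex. Shares of all genes called under these alternatives are not given here. Calls were lost for Hist1h2bf without 7 of the 8 columns in turn, for Hist1h2ae without SJL/J female replicate 2 (adjusted p = 0.082) and for Hist1h2an without TCR1640 male replicate 2 (adjusted p = 0.0532). Of 850 alternative values for 25 named members, 813 kept their side of the threshold, 25 lost and 12 gained a call, and 0 turned direction past it.

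The replicate numbers did not pair the samples, with correlations between same-numbered columns of -0.015 to 0.027 over 15793 genes. With 8 columns as separate samples, 21 members were called between strain labels (20 lower, 1 higher) and 4 between sexes, all higher, both with and without the replicate block. The fit then treats columns as samples, and the share of all genes it called is not given here. These counts are therefore not a result about histone genes.

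Members apart by 2-fold without the expression floor numbered 5 between strain labels in females (4 lower, 1 higher) and 11 in males (8 lower, 3 higher). Between sexes they numbered 2 and 3 in TCR1640-labelled and SJL/J-labelled libraries, all higher in males. The share of all genes apart without the floor is not given here, so these counts are not a result about histone genes. With overlap-free TMM factors 0 were apart in males. Leaving out a column gave 1 to 2 in females (2 without TCR1640 female replicate 1) and 1 to 2 in males (1 without either TCR1640 male column or SJL/J male replicate 2).

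The difference of class medians (cluster minus replacement, main value -0.37) was 0.13 over members with no overlap, 0.15 without the H2A genes and 0.045 without the H2B genes (both chosen after seeing the data) and -0.41 over members with at least 50 counts. Leaving out a column gave -0.37 to -0.13, with -0.24 without TCR1640 male replicate 1, -0.19 without TCR1640 female replicate 1, -0.24 without SJL/J male replicate 1 and -0.13 without SJL/J male replicate 2. Depth limits the cluster genes, of which 30 of 67 did not pass the filter on low counts.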
